A study of Salmo salar with 16 samples.

Results

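Of the 43689 probes on a salmonid oligonucleotide array, 2 are described here, C002R106 (itgb5) and C231R170 (htra1b). They were chosen by name, as a pair of cell matrix genes whose hepatic transcripts had differed in opposite directions between diets. The probe for itgb5 had been picked by rank products (RP) on slides C and D and by significance analysis of microarrays (SAM) on slides B to D, and the probe for htra1b by RP on slides C and D only. Diet differences on those slides therefore chose the probes and are given below as a description without a test. Tests are limited to slides whose values were left out of the choice of a probe, and to slides against each other. The authors removed slide A for high background after finding no differing genes with it, and then listed genes on fewer slides. The slides left out were thus not set apart before results were seen, and tests on them are not independent of the selection.

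Integrins are receptors of paired alpha and beta chains that span the cell membrane and bind proteins of the extracellular matrix. Integrin beta 5, encoded by itgb5, pairs with the alpha v chain in mammals to form a receptor for vitronectin, a matrix protein that the liver secretes into plasma. HtrA serine peptidase 1 is a secreted peptidase that cleaves matrix proteins such as fibronectin in mammals, and htra1b is 1 of its paralogues in salmon. The probe for itgb5 was designed from a rainbow trout sequence and matches salmon sequence incompletely. The assembled sequence behind the htra1b probe had its closest named protein match in Arctic char. Each name is thus the best match of the sequence from which a probe was designed, and not a proven transcript.

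Livers came from Atlantic salmon post-smolts fed plant-based diets for 12 weeks in seawater. Fish of one group received the high ω6 diet, with the highest ratio of ω6 to ω3 fatty acids of the feeding trial, and the comparison group received the high ω3 diet, with the lowest. Each diet was represented by 8 fish, 2 from each of 4 tanks, and every one of the 4 slides, called A to D in the order of their slide numbers, held 2 fish per diet. Cy5 marked the RNA of a single fish and Cy3 a reference pooled from all 16 fish, and every value below is a log2 ratio of fish over reference unless another scale is named. A value of 0 is the level of the pool. In whole liver, fewer cells of a type and less RNA per cell cannot be told apart. Liver markers were not examined, because the files used here do not pair probes with genes.

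Unflagged spots numbered from 21202 to 41311 per array. They numbered 21202 to 26722 on slides A and B, which were not used to pick htra1b, and 35173 to 41311 on slides C and D. Comparisons of these pairs of slides thus set arrays with fewer unflagged spots against arrays with more. The array of high ω6 fish 4 had the widest log2 ratios, with an SD of 1.35 across probes, against 0.55 to 0.69 on the other arrays. On slides C and D, the difference between diets passed an adjusted p of 0.1 for 0 of 25061 probes in limma (0%), while 1128 probes (4.5%) had an unadjusted p below 0.05. On slides B to D, 0 probes (0%) passed and 926 (3.69%) had an unadjusted p below 0.05, and on all 4 slides the numbers were 0 (0%) and 638 (2.55%).

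The transcript detected by the itgb5 probe was lower in high ω6 fish than in high ω3 fish on slides B, C and D. On slide C, high ω6 fish 1 and 3 had log2 ratios of -1.53 and -1.43, compared with 1.61 and 1.94 in high ω3 fish 1 and 5. The diets were 3.04 log2 units apart at their nearest fish, the widest gap of any slide for this probe. On slide D, high ω6 fish 2 and 6 had -2.08 and -0.44, compared with -0.15 and 0.81 in high ω3 fish 2 and 4. Here the nearest fish of the diets were 0.29 apart, and high ω6 fish 6 lay closer to high ω3 fish 2 than to the other high ω6 fish. On slide B, high ω6 fish 4 and 5 had -2.22 and -1.16, compared with -0.07 and 0.82 in high ω3 fish 3 and 6, with a gap of 1.09. No high ω6 fish of these 3 slides reached the level of the reference pool. For single slides, the share of all probes that separated the diets was not computed, for this probe or for htra1b.

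Over slides B to D, itgb5 averaged -1.48 ± 0.65 in high ω6 fish and 0.83 ± 0.85 in high ω3 fish (SD, n = 6 each), a difference of -2.30 with a standard error of 0.40 from limma. Standard errors from limma treat single fish as independent although fish shared tanks, so they may be too small. Over slides C and D, the means were -1.37 ± 0.68 in high ω6 fish and 1.05 ± 0.93 in high ω3 fish (SD, n = 4 each), and the difference was -2.42 with a standard error of 0.51. Fish of the diets did not overlap in either set of slides. Of probes with no missing fish, 0.103% were lower in every high ω6 fish than in every high ω3 fish on slides B to D, while slides C and D alone gave 0.973%. Since itgb5 was picked on these slides, nothing is read from its place among them.

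Slide A was not among the slides that picked itgb5, and the diets did not separate there. It held only tank 24 of the high ω6 diet and tank 26 of the high ω3 diet, and neither tank was on another slide. The comparison is thus of 1 tank with 1 tank. The authors had removed this slide for high background. The median Cy5 background over its arrays was 264, compared with 257.25 on slide B, 92.5 on slide C and 34.5 on slide D. These are scanner units, which depend on settings that the authors adjusted, and Cy3 background was not summarised by slide. The authors' reason was therefore not tested. High ω6 fish 8 had a log2 ratio of 0.49, compared with -0.51 and 1.36 in high ω3 fish 7 and 8, so that it lay between them. The difference was 0.07 (exact permutation test, two-sided, p = 1, with 1 high ω6 fish and 2 high ω3 fish, where the smallest possible p is 0.333). The spot of high ω6 fish 7 was saturated in Cy5 and had been flagged, and its log2 ratio of 0.63 when kept is a lower bound as far as the Cy5 signal is concerned. With that spot at its scanner value, the difference on slide A was 0.14 (n = 2 each), itself a lower bound. With so few fish, the exact permutation test cannot give a p below 0.333 there either. Both high ω6 fish of the slide were above all the other high ω6 fish. As both came from tank 24, slide and tank cannot be told apart for them.

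Over all 4 slides, itgb5 averaged -1.19 ± 0.95 in 7 high ω6 fish, ranging from -2.22 to 0.49 with a median of -1.43. In 8 high ω3 fish the mean was 0.73 ± 0.89, the range -0.51 to 1.94 and the median 0.82. The difference of -1.92 had a standard error of 0.43, and the saturated fish does not enter it. With tank as a random block, the difference was -1.89 with a standard error of 0.47. With the saturated spot kept at its scanner value and no tank block, the difference was -1.69 (n = 8 each), a lower bound. Without that spot, the diets overlapped in 4 of 56 pairs of fish. High ω6 fish 8 of slide A lay above 3 of the 8 high ω3 fish, and high ω6 fish 6 of slide D lay above high ω3 fish 7 of slide A.

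**Figure D1:**
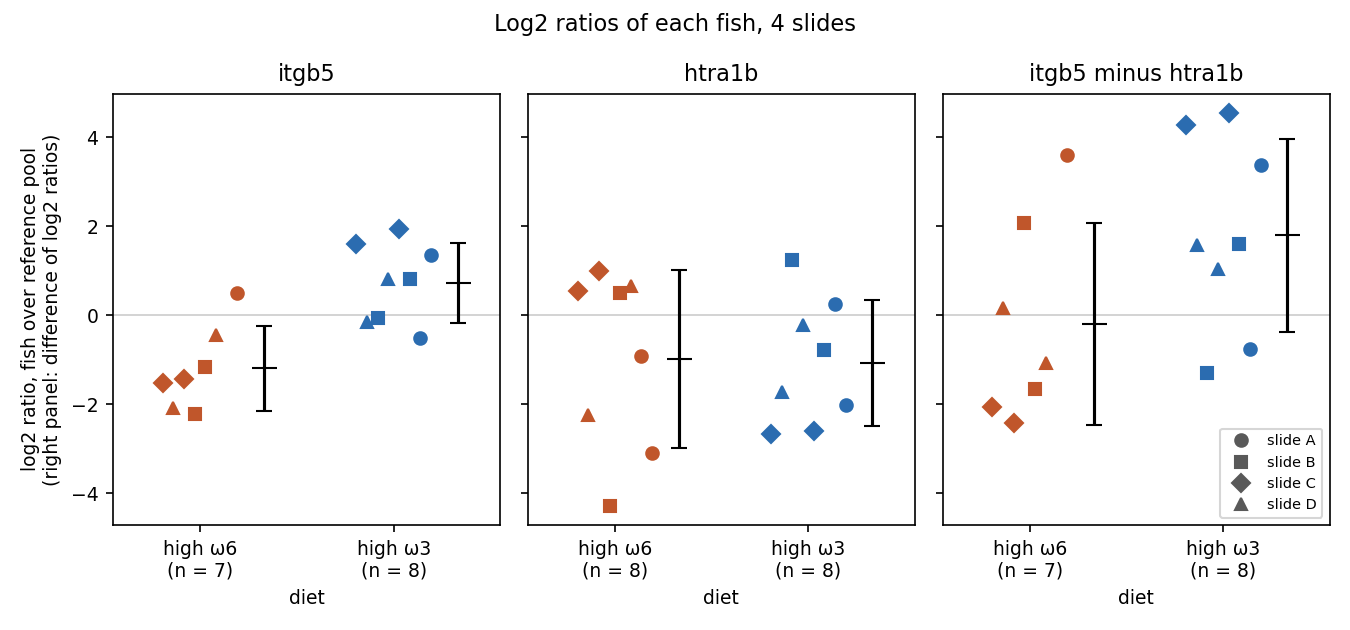
Log2 ratios (y axis) of itgb5, of htra1b and of their difference in each fish of the high ω6 diet (left in each panel) and the high ω3 diet (right), with the marker giving the slide and black lines the mean and SD. The itgb5 values of high ω6 fish lie mostly below those of high ω3 fish, the htra1b values of the diets cover much the same range, and the difference overlaps more than itgb5 alone.

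The transcript detected by the htra1b probe was higher in both high ω6 fish than in both high ω3 fish on slide C, and on no other of the 4 slides. On that slide, high ω6 fish 1 and 3 had log2 ratios of 0.54 and 0.99, compared with -2.67 and -2.60 in high ω3 fish 1 and 5. Fish of the same diet lay close together, and the diets were 3.14 apart at their nearest fish. On slide D, high ω6 fish 2 and 6 had -2.24 and 0.64, compared with -1.73 and -0.23 in high ω3 fish 2 and 4. The high ω6 fish lay on either side of the high ω3 fish, and the mean difference was 0.18. The difference over slides C and D, on which the probe was picked, was thus the mean of 3.40 on slide C and 0.18 on slide D.

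Over these 2 slides, htra1b averaged -0.02 ± 1.50 in high ω6 fish and -1.81 ± 1.14 in high ω3 fish (SD, n = 4 each), a difference of 1.79 with a standard error of 0.82. The diets overlapped because of high ω6 fish 2, which was lower than 2 of the 4 high ω3 fish. Without that fish the difference was 2.53, and the remaining 3 high ω6 fish were all above the 4 high ω3 fish. With all 4 fish per diet, 1.47% of probes with no missing fish were higher in every high ω6 fish on these slides, which htra1b was not. No such share was computed without high ω6 fish 2, so the separation after leaving it out has no matching share.

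On the slides that were not used to pick htra1b, the difference ran the other way. On slide B, high ω6 fish 4 and 5 had log2 ratios of -4.28 and 0.50, compared with 1.23 and -0.78 in high ω3 fish 3 and 6. On slide A, high ω6 fish 7 and 8 had -0.93 and -3.11, compared with 0.24 and -2.02 in high ω3 fish 7 and 8. The diets overlapped on each of these slides, and the lowest fish of each was fed the high ω6 diet. Over both slides the means were -1.95 ± 2.15 in high ω6 fish and -0.33 ± 1.39 in high ω3 fish (SD, n = 4 each). The difference of -1.62 did not exceed the spread between fish (exact permutation test, two-sided, p = 0.286, adjusted p = 0.571 over the 2 probes tested). When diets were exchanged within slides only, the exact permutation p was 0.389. These tests treat single fish as independent although fish shared tanks, so the p-values may be too small.

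Those 2 lowest fish decide the sign in another version of the data. The table of log2 ratios that was deposited by the authors holds no htra1b value for high ω6 fish 4 and 8, which are the lowest 2 of their diet, while neither spot carries a flag in the scanner output. From that table, the difference on slides A and B was 0.13 (exact permutation test, two-sided, p = 0.867, with 2 high ω6 fish and 4 high ω3 fish). The signals of these spots were dim but above their surroundings. High ω6 fish 4 had a Cy5 signal of 796 over a local background of 201, and high ω6 fish 8 had 687 over 23.5.

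Over all 4 slides, htra1b averaged -0.99 ± 2.00 in high ω6 fish, ranging from -4.28 to 0.99 with a median of -0.21. In high ω3 fish the mean was -1.07 ± 1.41 (SD, n = 8 each), the range -2.67 to 1.23 and the median -1.26. The difference was 0.08 with a standard error of 0.77, or 0.84 with tank as a random block. Leaving out a single fish brought it below 0 for 8 of the 16 fish, and it was 0.56 without high ω6 fish 4, the fish with the widest array.

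**Figure D2:**
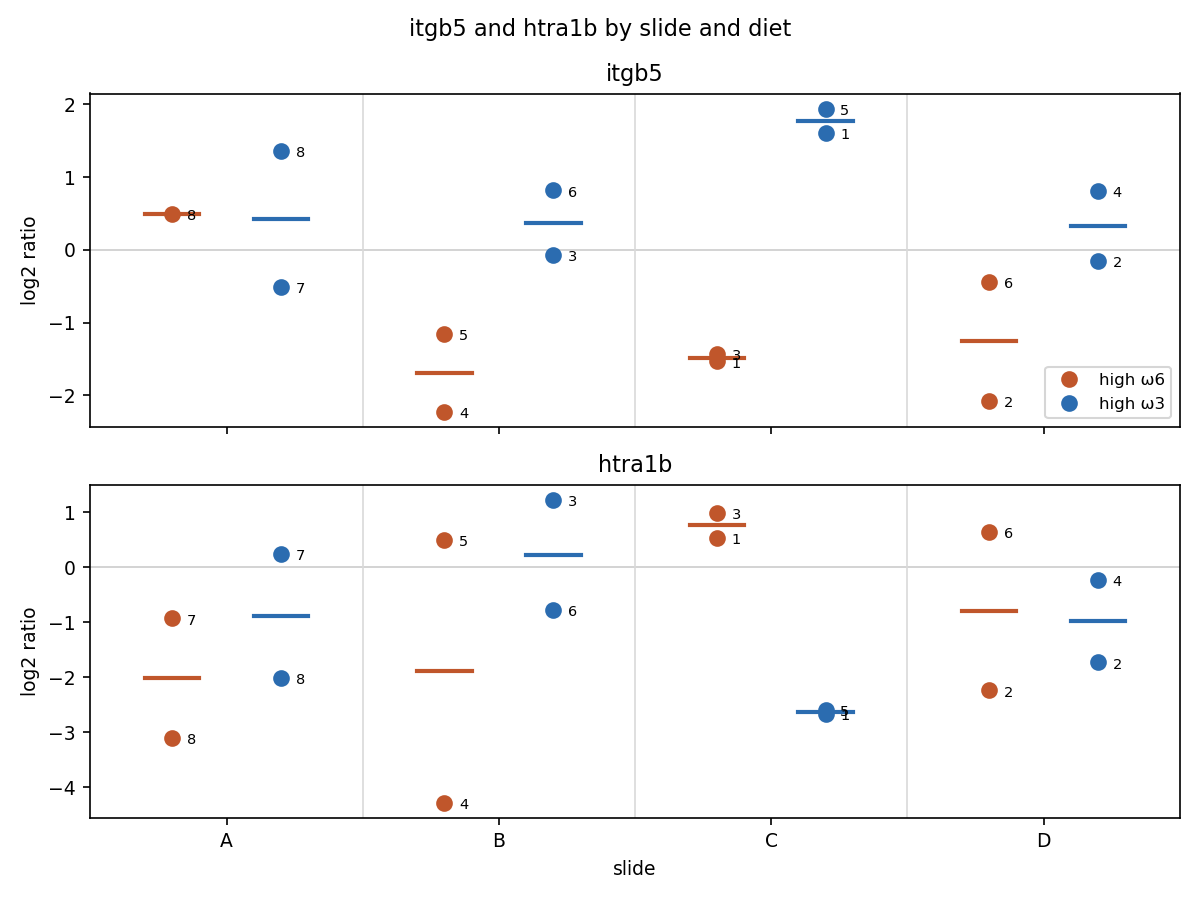
Log2 ratios (y axis) of itgb5 (top) and htra1b (bottom) by slide (x axis), with high ω6 fish left and high ω3 fish right within a slide, fish numbers beside the points and bars for the mean of a diet on that slide. On slide C the probes differ between diets in opposite directions with fish of a diet close together, whereas for htra1b the diets overlap on each of the other slides.

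No difference in level between slides was found for either probe beyond the spread within slides. With diet in the model, the F test of limma gave adjusted p = 0.769 for itgb5 and 0.982 for htra1b. The model holds the same diet difference on every slide, so a diet difference that changes between slides was not tested. With so few fish per slide, a difference in level could be missed, and fish whose values chose the probes are included. At an adjusted p of 0.1, 1.18% of 24916 probes differed between slides. The tanks of slide A were on no other slide, so slide and tank cannot be told apart for that slide. Fish of a tank in the high ω6 diet differed by 0.68 on average for itgb5 (3 tanks), compared with 1.20 between high ω6 fish of different tanks. In the high ω3 diet the order was the reverse, with 1.41 between tank-mates (4 tanks) and 1.03 between fish of different tanks. For htra1b, tank-mates of the high ω6 diet differed by 2.59 on average and other pairs of that diet by 2.29, and in the high ω3 diet the values were 1.62 and 1.72. The largest difference between tank-mates was 5.27, between high ω6 fish 3 and 4 of tank 7 for htra1b. For htra1b, tank-mates were thus not closer to each other than other fish of the high ω6 diet. These are descriptions of 3 or 4 tanks per diet without a test.

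The spread of htra1b within diets was among the widest on the array. Its pooled SD within diets was 1.73, exceeded by 74 of 25061 probes, whereas that of itgb5 was 0.92, exceeded by 2439 probes. The median probe had a pooled SD of 0.51. Within the high ω6 diet the SD was 2.00 for htra1b and 0.95 for itgb5, and within the high ω3 diet it was 1.41 for htra1b and 0.89 for itgb5. Leaving out high ω6 fish 4 gave 1.61 for htra1b and 0.92 for itgb5 in the high ω6 diet. Among the 12 probes of the study's list, ordered from the widest pooled SD to the narrowest, htra1b was number 3 and itgb5 number 10. In units of the pooled SD, the diet difference over 4 slides was -2.08 for itgb5 and 0.05 for htra1b. With the saturated itgb5 spot kept at its scanner value, that of itgb5 was -1.69.

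Signals varied more in the channel of the fish than in that of the pool. For htra1b, the highest Cy5 signal of a slide was between 8.43 and 29.2 times the lowest, whereas the highest Cy3 signal, from the same pool on every array, was between 1.09 and 1.86 times the lowest. For itgb5, the Cy5 signals of a slide covered from 4.42-fold to 14.1-fold, counting the saturated spot at its scanner value, and the Cy3 signals from 1.37-fold to 2.75-fold. Spots around either probe were summarised by their median log2 ratio. The surrounding window reached 5 rows and 5 columns to each side of the spot. Its median log2 ratio ranged from -0.17 to 0.32 around itgb5 and from -0.34 to 0.10 around htra1b over the 16 arrays. A median over many spots does not show a fault of a single spot or a small patch, which was not tested. The lowest Cy5 signal relative to local background was 5.69 for itgb5 and 3.96 for htra1b, so that all spots stood above background. Signals are plotted as scanned, before background correction and normalization, so levels of different slides carry the settings of the scanner as well.

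**Figure D3:**
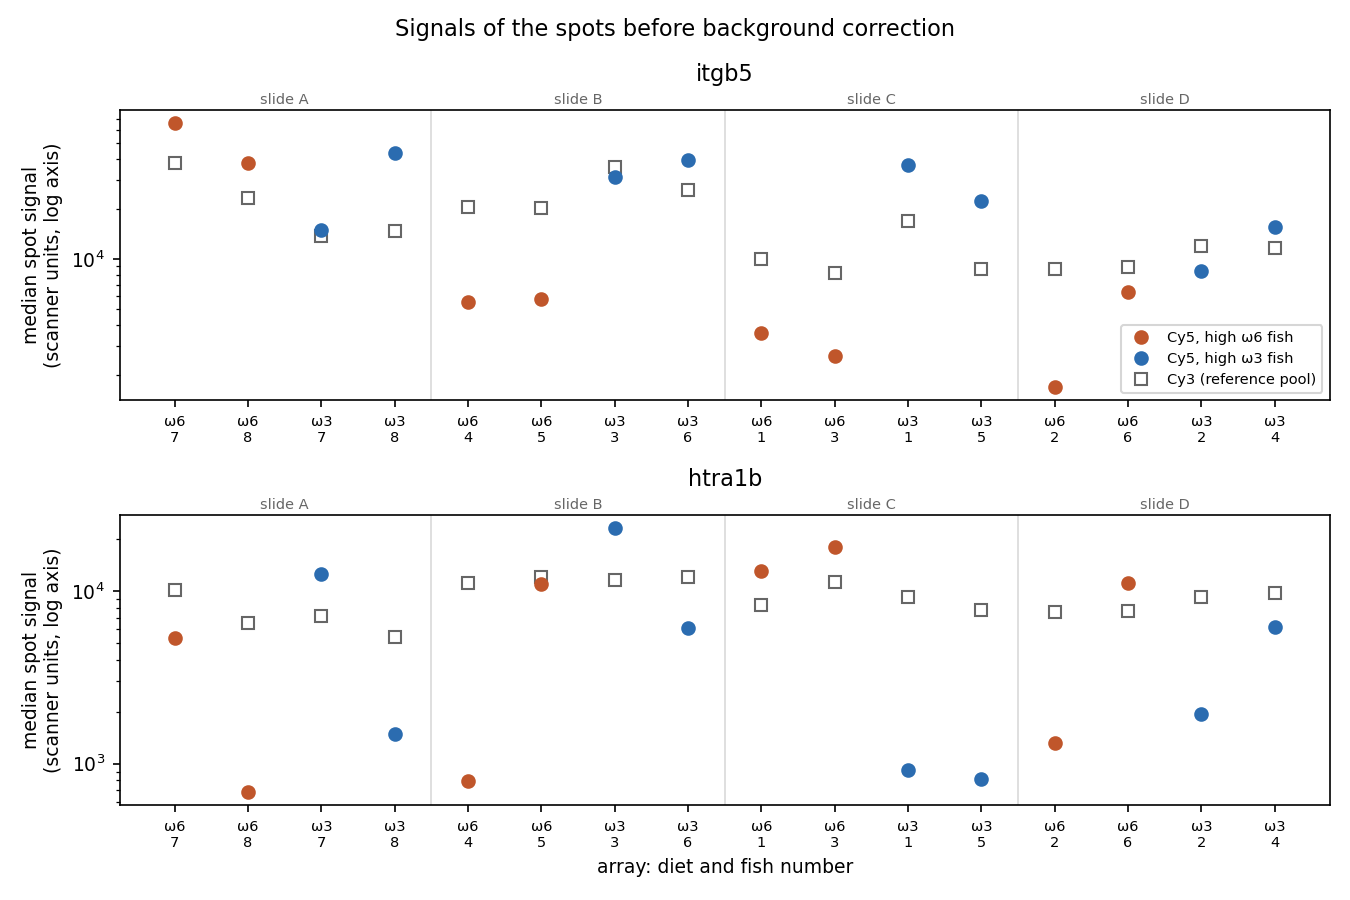
Median spot signals in scanner units (log y axis) of itgb5 (top) and htra1b (bottom) on each array, ordered by slide and, within a slide, high ω6 before high ω3; filled points are Cy5 (fish) and open squares Cy3 (reference pool). Cy3 varied by at most 2.75-fold within a slide, while Cy5 of htra1b varied by at least 8.43-fold.

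Other probes followed each of these probes across fish. The probe most like htra1b was C170R142, with Pearson r = 0.96 over 16 fish, 0.98 within the high ω6 diet and 0.91 within the high ω3 diet. It was printed 61 columns and 28 rows away from htra1b on the array grid. Its lowest value, -3.82, was close to the lowest of htra1b, and its mean was -0.97 in high ω6 fish and -1.01 in high ω3 fish. The next probes in likeness to htra1b were C219R139 and C039R041, with r = 0.83 and 0.81, both with a narrower range, and both with diet differences within 0.10 of 0. The probes most like itgb5 were C262R069, C171R002 and C226R022, with r = 0.92 over 15 fish, 0.88 over 14 and 0.88 over 14. Within the high ω6 diet r was 0.77, 0.74 and 0.81, and within the high ω3 diet 0.94, 0.87 and 0.80. Their means were -0.39, -0.28 and -0.14 in high ω6 fish, compared with 0.97, 1.15 and 0.75 in high ω3 fish. As itgb5 was picked on its diet difference, probes chosen for following it over both diets tend to share that difference. These 6 probes were the most alike of 15692 probes for htra1b or 12726 probes for itgb5, on arrays that all share the same pool. Their correlations and diet means are a description. None of these 6 probes has a gene name in the sources used here.

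The relation between itgb5 and htra1b within each diet is given as a description without a test, since the fish of slides C and D, whose values chose the probes, are part of it. In high ω3 fish, r was -0.75 and Spearman rho -0.79 (n = 8). Fish with the highest itgb5, fish 1 and 5 of slide C, had the lowest htra1b, and fish 3, with the highest htra1b, had itgb5 close to the pool. Without fish 5 and 7, the farthest from the median of itgb5, r was -0.62 (n = 6), and with median centring in place of loess it was -0.47. In high ω6 fish, r was 0.10 and rho 0.29 (n = 7). It was 0.92 without fish 6 and 8, the farthest from the median of itgb5, and -0.34 without fish 4, so that single fish set both its size and its sign. Whether the diets differ in this relation was not tested.

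**Figure D4:**
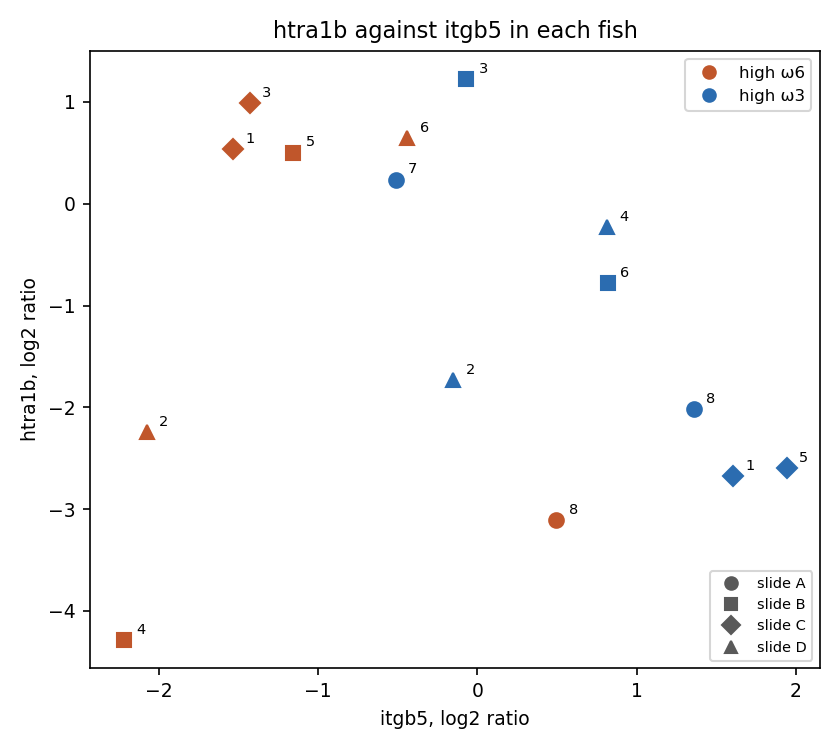
Log2 ratio of htra1b (y axis) against that of itgb5 (x axis) in 7 high ω6 fish and 8 high ω3 fish, with the marker giving the slide and numbers the fish. High ω3 fish run downwards from left to right (r = -0.75), while high ω6 fish 2 and 4 are low in both probes and fish 8 has an itgb5 value within the range of high ω3 fish.

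The difference itgb5 minus htra1b was formed in each fish to compare how well it separated the diets with either probe alone. Every fish of 1 diet was paired with every fish of the other, and pairs were counted in which the high ω6 fish was lower (itgb5 and the difference) or higher (htra1b). On slides C and D, 16 of 16 pairs were in this order for the difference, 16 of 16 for itgb5 (a share reached by 1.22% of all probes) and 14 of 16 for htra1b (reached by 5.68%). The difference averaged -1.35 ± 1.16 in high ω6 fish and 2.86 ± 1.80 in high ω3 fish (SD, n = 4 each). The gap between the nearest fish of the diets was 0.88 for the difference and 0.29 for itgb5. Relative to the pooled SD within diets, however, the distance between the means was -2.78 for the difference, -2.97 for itgb5 and 1.35 for htra1b. Neither order held under every setting. With median centring in place of loess, the gap was 0.92 for the difference and 1.05 for itgb5, and without high ω6 fish 2 the distance was -3.22 for the difference and -2.68 for itgb5.

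With slide B and then slide A added, the difference ordered fewer pairs of fish than itgb5. On slides B to D, 30 of 36 pairs (83.3%) were in order for the difference, 36 of 36 for itgb5 and 22 of 36 for htra1b (61.1%). At least as large a share was reached by 0.208% of probes for itgb5 and by 27.9% for htra1b. On all 4 slides the numbers were 42 of 56 (75.0%) for the difference, 52 of 56 (92.9%) for itgb5 and 34 of 64 (53.1%) for htra1b. The share of all probes that ordered pairs at least as well on 4 slides was 0.14% for itgb5 and 41.3% for htra1b, of 25061 probes, and as the probes were picked on part of these fish nothing is read from it. For pairs of fish on the same slide, no share over all probes was computed. Of these pairs, 10 of 14 were in order for the difference, 13 of 14 for itgb5 and 8 of 16 for htra1b. In these counts, which were not compared by a test, the share for the difference lay between those of itgb5 and htra1b. With the saturated itgb5 spot kept, 47 of 64 pairs on all 4 slides were in order for the difference (73.4%). For itgb5, 57 of 64 were then in order (89.1%). In the deposited table, which lacks htra1b for high ω6 fish 4 and 8, the difference ordered 28 of 30 pairs on slides B to D (93.3%). On all 4 slides it ordered 37 of 40 (92.5%). From the same table, itgb5 ordered 36 of 36 and 53 of 56 (94.6%). The itgb5 counts include high ω6 fish 4 and 8, so they are not from the same fish as those for the difference. Every itgb5 pair out of order in that table involved high ω6 fish 8.

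Of the 14 pairs out of order on 4 slides, 11 involved high ω6 fish 4 or 8. On slide B, high ω6 fish 4 had a difference of 2.06, above both high ω3 fish of the slide at -1.30 and 1.60, as its htra1b value of -4.28 was lower still than its itgb5 value of -2.22. High ω6 fish 5 of that slide, at -1.66, was below both. On slide A, high ω6 fish 8 had 3.60, compared with -0.75 and 3.38 in high ω3 fish 7 and 8, and 0 of 2 pairs were in order. The other 3 pairs were between slides, with high ω6 fish 2 above high ω3 fish 3 and 7, and high ω6 fish 6 above high ω3 fish 3. On slide C, high ω6 fish 1 and 3 had -2.07 and -2.42, compared with 4.28 and 4.54 in high ω3 fish 1 and 5, the farthest apart of any slide. On slide D, high ω6 fish 2 and 6 had 0.16 and -1.08, compared with 1.58 and 1.04 in high ω3 fish 2 and 4. Without high ω6 fish 4, the difference ordered 28 of 30 pairs on slides B to D and itgb5 ordered 30 of 30.

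As htra1b had the wider spread, it weighed more in the plain difference. When each probe was first divided by its pooled SD over 4 slides, 16 of 16 pairs were in order on slides C and D, 35 of 36 on slides B to D and 49 of 56 on all 4 slides (87.5%). The distance between means relative to the pooled SD on slides C and D was then -3.22, against -2.97 for itgb5 alone. With slide B added it was -2.14, against -3.05 for itgb5, and with all 4 slides -1.32, against -2.08 for itgb5. Of these 3 sets of slides, the scaled difference was farther from 0 than itgb5 alone only on slides C and D, which had picked both probes.

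**Figure D5:**
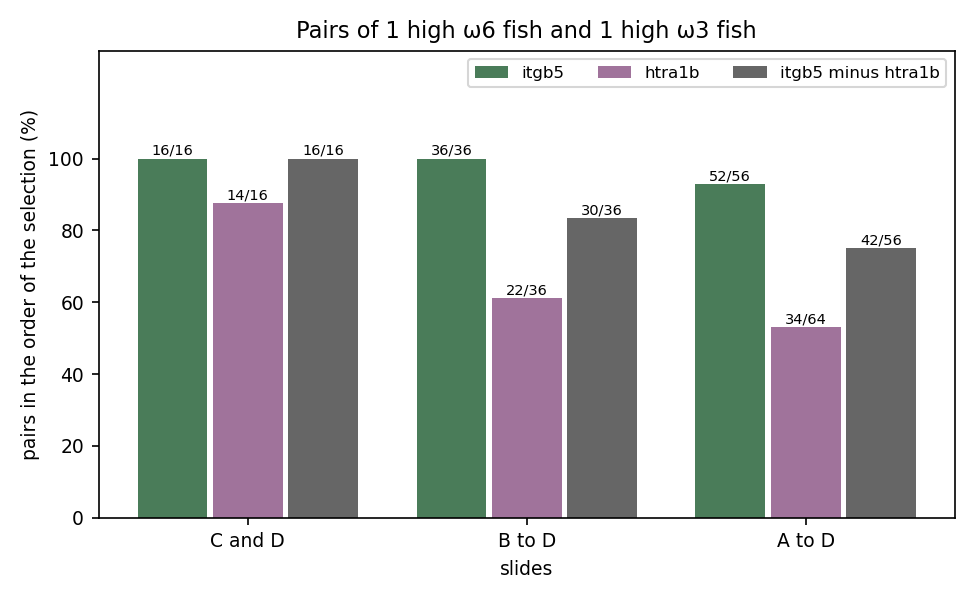
Percentage (y axis, from 0) of pairs of 1 high ω6 fish and 1 high ω3 fish that were in the order of the selection, for itgb5, htra1b and their difference on 2, 3 and 4 slides (x axis), with counts above the bars. The share for itgb5 was 100%, 100% and 92.9%, and that for the difference 100%, 83.3% and 75.0%.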

How the data were processed

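Livers of 16 fish were profiled on 2-colour salmonid oligonucleotide arrays, and diet and fish number were taken from the labels, tank and slide from the names of the deposited files (slides A, B, C and D are 11502, 11503, 11504 and 11505). The authors quantified spots in imaging software, and the deposited scanner output gives the intensity of signal and local background per channel, not background-corrected, with flags. A second deposited file holds the authors' log2 ratios after loess normalization, without spots that were flagged or that the authors judged low in quality. That file served as an alternative.

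Here, flagged spots counted as missing, normexp (offset 50) was applied to median signals, and log2 ratios of Cy5 over Cy3 were loess-normalized within arrays. Probes unflagged on at least 12 arrays were kept (25061). Differences and standard errors came from a limma model with diet alone, fitted over all probes with Benjamini-Hochberg adjustment; slides were compared with the F test with diet in the model. Single values in fish not used for selection were tested with exact two-sided permutation tests. Correlations within diets had been planned with such tests and are given without them, since fish used for selection enter them. The number of arrays limits the precision. limma was checked on simulated data. Members and lists were chosen with earlier results of these data known. Only the 2 probes were named by rule, with the 3 probes of highest Pearson r to each (unflagged on at least 14 fish). Gene lists and liver markers were not used, as no table used here pairs probes with genes, and no probe sequence is printed. The measurements by qPCR are not analysed here.

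Alternatives were no background correction, background subtraction, median centring, flagged spots kept, the deposited table, the mean spot signal, centring on a local window, each fish left out, and slide, tank or fish number as a block. The scaled difference, the separation without high ω6 fish 4 or 2, and the counts of called probes with the mean signal, local centring or slide as a block on fewer than 4 slides were chosen after seeing the data. Calculations used R 4.3.3 with limma 3.58.1, Python 3.11.15, numpy 2.4.6, pandas 2.3.3, scipy 1.17.1 and matplotlib 3.10.9.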

Additional observations from a re-analysis of the deposited data

Results flagged for a closer look

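In the 4 high ω6 fish of slides C and D, the lowest htra1b value, -2.24 in fish 2, lay far from the other 3 fish, with a gap to the nearest of 0.861 of the whole range, beyond Dixon's critical value at the 95% level. Chance alone marks about 1 in 20 independent groups, and 1 of 18 groups examined was marked. The groups examined share fish, and htra1b was picked on these slides, so nothing is concluded from the mark. The itgb5 value of the same fish, -2.08, was also the lowest of these 4 fish.

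The itgb5 spot of high ω6 fish 7 was left out for saturation and so entered no comparison except where flagged spots were kept. Its Cy5 signal of 65535 was the upper limit of the scanner and exceeded the highest Cy5 signal of a high ω3 fish, 43658. Its Cy3 signal, 38069, was also the highest of the 16 arrays for this probe.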

How the results depend on the processing

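The diet differences of itgb5 and of itgb5 minus htra1b on the slides of their selection and on 4 slides, and that of htra1b on the 2 slides of its selection, kept their sign and moved by less than 1 SD under every alternative tried. With single fish left out, itgb5 on 4 slides ranged from -2.20 to -1.75, and itgb5 minus htra1b from -2.63 to -1.60, whereas from the deposited table, which lacks htra1b for high ω6 fish 4 and 8, it was -3.29. The 4-slide difference of htra1b had no stable sign: with single fish left out it ranged from -0.20 to 0.56, and when taken from the deposited table it was 1.01. The deposited table also turned the sign of the differences in fish not used for selection, to -0.0071 for itgb5 and 0.13 for htra1b; for htra1b that table holds fewer fish, and for itgb5 the cause was not tested. With single fish left out, the htra1b difference in fish not used for selection ranged from -2.44 to -0.84. The correlation in high ω6 fish was -0.28 with median centring and -0.0135 with local centring, and from -0.34 to 0.78 with single fish left out. In high ω3 fish it ranged from -0.91 to -0.68. Between diets, the main setting called 0 probes on each set of slides. On 4 slides, 1 probe was called with the mean spot signal, and on slides B to D, 1 with background subtraction and 1 with median centring. On slides C and D, 1 probe was called without high ω6 fish 6, and it was neither itgb5 nor htra1b. The probe called with median centring was itgb5, which had been picked on these slides, so nothing is read from that call. With background subtraction, itgb5 was not the probe called. Between slides, the number called was 0 without background correction, 61 with subtraction, 9863 with median centring and 453 with flagged spots kept, against 294; the cause was not tested. Fish numbers do not mark a shared tank, and fish with the same number were not treated as pairs. Their deviations from the diet means were all positively correlated, with r from 0.087 to 0.602 over probes. Fish numbers 1, 2, 7 and 8 were on the same slide in both diets, with r of 0.28, 0.28, 0.52 and 0.60. For fish numbers 3, 4, 5 and 6, on different slides, r was 0.09, 0.33, 0.18 and 0.37. In addition, 4 of the high ω6 fish correlated best with the high ω3 fish of their own number, and the cause was not tested. With fish number as a replicate block, the 4-slide difference was -2.10 for itgb5 and 0.08 for htra1b, and 0 probes were called. Saturation of 1 itgb5 spot and the few fish per slide limit what can be seen.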
